A study of Mus musculus with 4 samples.

Results

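Collagen is read by several receptor families in the lung, and 7 of their genes were followed here through every cell class of 4 single-cell libraries: the integrin subunits Itga1, Itga2, Itga11 and Itgb1, the discoidin domain receptors Ddr1 and Ddr2, and the mannose receptor family member Mrc2. The genes were taken by symbol, and all 7 were found among the 32285 genes of the count tables. The libraries were made from mouse lung of 4 kinds: wild-type (WT) lung without tumor, WT lung bearing B16/F10 tumor cells (a mouse melanoma line), LAIR1KO lung without tumor, and LAIR1KO lung bearing B16/F10 tumor. LAIR1KO is the genotype name in the labels, and LAIR1 is itself an inhibitory collagen receptor of leukocytes. Each library pooled 3 hashtagged replicates, that is, cells stained with one of 3 barcoded antibodies before pooling. The labels give no treatment beyond the tumor, and the age, strain, way of tumor delivery and construction of the knockout are not given in the sources used here.

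Collagen-binding integrins are pairs of 1 alpha and 1 beta subunit. The products of Itga1, Itga2 and Itga11 each pair with the beta subunit encoded by Itgb1, which also serves many alpha subunits that bind other ligands. The alpha 1 subunit is best known for binding basement membrane collagen IV, whereas alpha 2 and alpha 11 bind fibril-forming collagens, and alpha 11 is a fibroblast protein. Ddr1 and Ddr2 encode receptor tyrosine kinases switched on by collagen, with Ddr1 best known in epithelium and Ddr2 in mesenchyme. Mrc2 encodes an endocytic receptor that carries collagen fragments to lysosomes.

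The libraries held 3295 to 4727 barcodes and 25216301 to 28034709 gene UMIs (unique molecular identifiers, 1 for each captured RNA molecule), and any pair of libraries shared 3 to 7 cell barcodes. After filtering, 15793 cells remained, of which 8468 could be given to 1 of 12 hashtag replicates with 510 to 1050 cells each. Cell classes were rebuilt from clustering without the 7 genes and are written with the ending "-like". 17 of 22 classes had at least 3 replicates of 10 cells or more. Fibroblast-like and alveolar type 2 cell-like cells lost many cells at this step: 54.8% to 69.3% of alveolar fibroblast-like and 37.3% to 53.0% of alveolar type 2 cell-like cells carried no hashtag. The WT normal replicates expressed the Y-linked gene Ddx3y at 184.6 to 202 CPM (counts per 1000000, the gene UMIs of a sum scaled to 1000000) and Xist at no more than 0.458, while the other 9 replicates had Xist at 1120 to 1374 and Ddx3y at no more than 0.969. Sex and group therefore cannot be told apart in any comparison that uses WT normal lung.

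The knocked-out gene was checked first. In interstitial macrophage-like cells, a tissue-resident macrophage class with 1433 cells, Lair1 stood at 120.9, 107.6 and 142.3 CPM in the 3 WT normal replicates and at 207.2, 218.0 and 173.1 in the WT tumor-bearing ones. It was at 0 in 3 of 3 LAIR1KO normal replicates (0 UMIs in 202 cells) and reached 0.608 in 1 LAIR1KO tumor-bearing replicate, from 1 UMI in 534 cells. LAIR1KO against WT gave -9.51 on the log2 scale in normal lung (SE 0.63, edgeR adjusted p = 6.63e-08), in a class with 1.37% of genes called. The libraries thus matched their genotype labels.

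All positions are from the GRCm38 mouse assembly (GENCODE vM21 annotation). Itga1 (ENSMUSG00000042284) lies on the minus strand at chr13:114953096-115101964, and Itga2 (ENSMUSG00000015533) lies beside it on the same strand at chr13:114833081-114932100, 20995 bases away. Itga11 (ENSMUSG00000032243) is at chr9:62677826-62783982 and Itgb1 (ENSMUSG00000025809) at chr8:128685654-128733200, both on the plus strand. Ddr1 (ENSMUSG00000003534) is at chr17:35681567-35704621 on the minus strand, Ddr2 (ENSMUSG00000026674) at chr1:169972307-170110762 on the minus strand, and Mrc2 (ENSMUSG00000020695) at chr11:105292643-105351139 on the plus strand. Pelo sits within an intron of Itga1 on the same strand. It had 2740 UMIs in all filtered cells against 21408 for Itga1. Gm49395, on the same strand, has a span that touches an Itga1 exon, but it is not among the genes of the count tables. Antisense genes on the opposite strand touch exons of Ddr1 (Gm4577) and Ddr2 (3110045C21Rik). Whether reads were split or lost between these genes was not tested.

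The 250 bases before the annotated start of 4 genes are shown because these genes had different distributions over the classes: Itga1 and Itga2 are chromosomal neighbours that were both high in capillary classes, Itgb1 was found in all classes, and Ddr2 was high in fibroblast classes. The sequences are RefSeq's for GRCm38.p6, written 5′ to 3′ on the gene's own strand. Capitals mark matches, on either strand, to GGGCGG (a GC box, CCGCCC on the other strand) or AGGAAG (the core bound by ETS factors, CTTCCT on the other strand).
Itga1, chr13:115101965-115102214, minus strand: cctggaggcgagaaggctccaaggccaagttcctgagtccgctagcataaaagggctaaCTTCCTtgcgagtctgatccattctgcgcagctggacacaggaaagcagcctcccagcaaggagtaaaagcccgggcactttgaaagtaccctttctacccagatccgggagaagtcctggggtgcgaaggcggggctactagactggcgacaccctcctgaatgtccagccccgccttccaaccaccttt
Itga2, chr13:114932101-114932350, minus strand: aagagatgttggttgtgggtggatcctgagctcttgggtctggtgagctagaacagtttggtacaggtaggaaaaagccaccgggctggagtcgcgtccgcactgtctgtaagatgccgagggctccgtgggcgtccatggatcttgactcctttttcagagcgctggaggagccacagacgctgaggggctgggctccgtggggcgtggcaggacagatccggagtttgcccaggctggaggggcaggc
Itgb1, chr8:128685404-128685653, plus strand: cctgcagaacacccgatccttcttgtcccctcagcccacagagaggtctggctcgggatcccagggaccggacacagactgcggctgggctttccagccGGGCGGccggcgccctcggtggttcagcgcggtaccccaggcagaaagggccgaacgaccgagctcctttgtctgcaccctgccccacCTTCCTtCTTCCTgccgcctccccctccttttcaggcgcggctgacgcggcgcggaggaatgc
Ddr2, chr1:170088945-170089194, minus strand: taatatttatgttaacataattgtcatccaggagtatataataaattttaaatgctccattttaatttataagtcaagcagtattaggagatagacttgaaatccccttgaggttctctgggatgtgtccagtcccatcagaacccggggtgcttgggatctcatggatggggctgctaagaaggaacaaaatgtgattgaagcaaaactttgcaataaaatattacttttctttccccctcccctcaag
The Itgb1 window held 1 GC box and 2 AGGAAG matches, the Itga1 window 1 AGGAAG match, and the Itga2 and Ddr2 windows neither motif. Among 32851 promoters of the same length, 32.7% held GGGCGG and 29.5% held AGGAAG. GC content was 68.0% for Itgb1, 60.8% for Itga2, 57.6% for Itga1 and 37.6% for Ddr2. The RefSeq start used for Ddr2 lies inside the annotated gene, downstream of its outermost start, so its GC content and motifs are those of an internal start. Ddr2 alone of the 4 windows held TATAAA (or TTTATA, its other strand), which 12.4% of promoters had. These are descriptions of letters in a window, and no binding was measured.

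Itgb1, the shared beta subunit, was detected in every replicate sum of all 17 classes. Levels here are CPM of UMIs summed over the cells of a class in 1 hashtag replicate. They can be compared for 1 gene across classes, whereas levels of different genes are not set against each other. The Itgb1 level was 794 ± 126 (SD, n = 3) in pericyte- or smooth muscle-like cells, 634 ± 54.2 (n = 12) in general capillary endothelial-like cells and 602 ± 78.9 (n = 4) in alveolar type 1 cell-like cells. These first 3 places in the order were not separated by the fit over classes (edgeR quasi-likelihood test with the replicate as a block, adjusted p of 0.65 or more). The fibroblast classes followed at 474 ± 50.7 in alveolar, 457 ± 66.6 in inflammatory and 389 ± 70.6 in adventitial fibroblast-like cells.

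**Figure D1:**
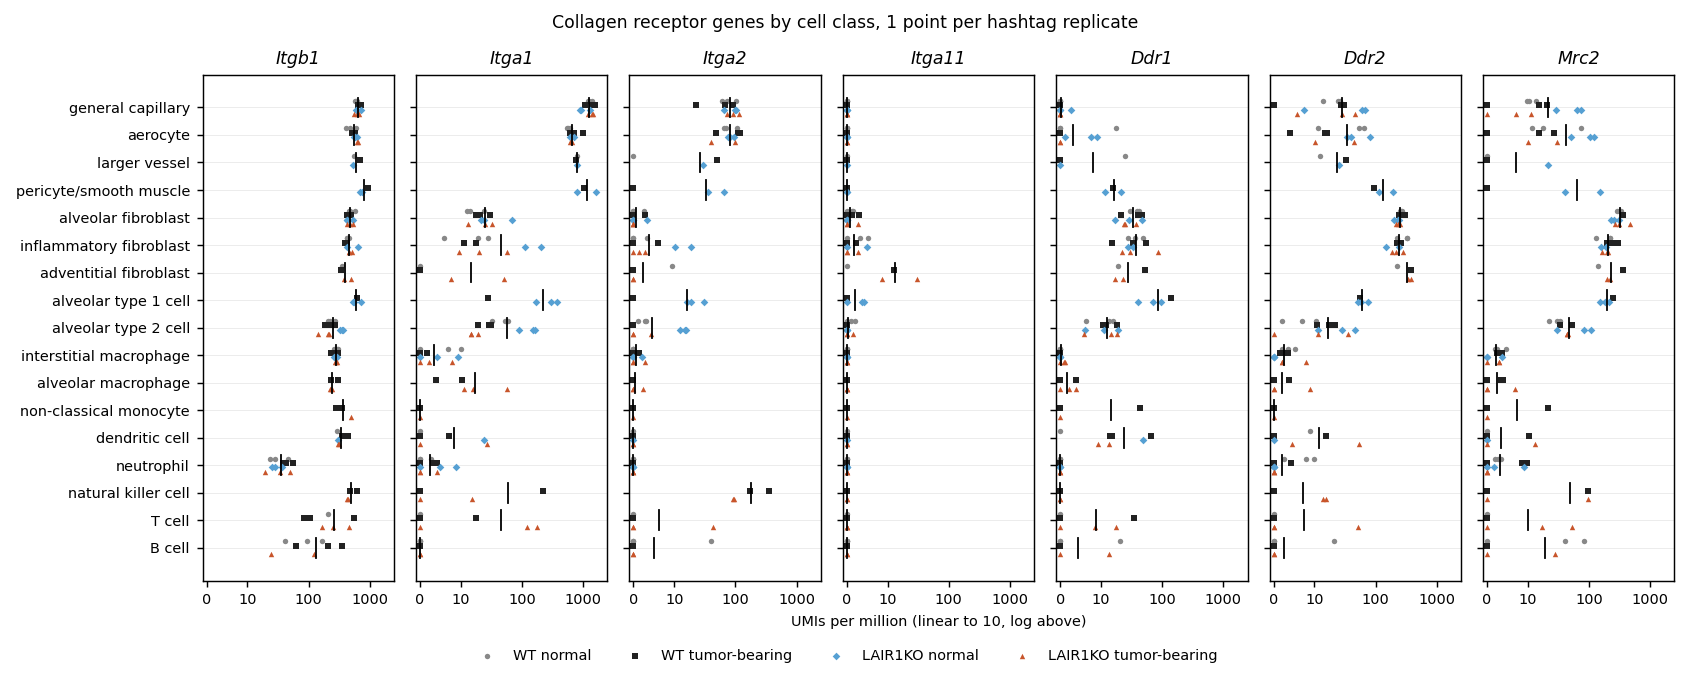
Level of each of the 7 genes (CPM, x axis linear to 10 and logarithmic above) in 17 cell classes (rows). Each point is 1 hashtag replicate and the vertical line is the class mean; Itgb1 extends over all rows, Itga1 and Itga2 peak in vascular rows and natural killer cell-like rows respectively, and Ddr2 and Mrc2 peak in fibroblast rows.

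Among leukocytes, Itgb1 spanned more than an order of magnitude. It was 489 ± 85.3 (n = 4) in natural killer cell-like cells and 276 ± 20.02 (n = 12) in interstitial macrophage-like cells, but 35.6 ± 11.5 (n = 12, from 19.4 to 56.3) in neutrophil-like cells, the lowest of the 17 classes. The B cell-like class, next above the neutrophils at 134 ± 108, was higher by 1.09 on the log2 scale (SE 0.24, edgeR adjusted p = 6.912e-05, higher in 6 of 8 replicates with both classes), in a comparison where 51.8% of the 9741 genes tested were called. Alveolar macrophage-like cells at 246 ± 30.6 were above B cell-like cells by 0.93 (SE 0.23, adjusted p = 5.967e-04, higher in 4 of 5), against 36.7% of genes called. Interstitial macrophage-like cells were above T cell-like cells by 0.57 (SE 0.20, adjusted p = 0.0143, 5 of 7), against 41.4%. T cell-like cells had a mean of 259, just above that of alveolar type 2 cell-like cells. The fit nevertheless placed T cell-like cells lower (-0.49, SE 0.20, adjusted p = 0.041, against 42.1% of genes called), the opposite order to the means.

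Within the interstitial macrophage-like class, the class in which Lair1 was measured above, Itgb1 did not pass the threshold in any contrast. It was 298.8, 294.7 and 258.2 CPM in WT normal replicates and 265.5, 233.1 and 297.4 in WT tumor-bearing ones. LAIR1KO normal replicates had 259.5, 272.2 and 295.9, and LAIR1KO tumor-bearing ones 287.4, 274.4 and 276.2. All 4 ranges overlapped. The difference of LAIR1KO from WT was -0.02 on the log2 scale in normal lung (SE 0.14, edgeR adjusted p = 0.999) and 0.09 in tumor-bearing lung (SE 0.12, adjusted p = 0.955). Tumor-bearing against normal lung gave -0.11 in WT (SE 0.13, adjusted p = 0.83), and the interaction of genotype and tumor was 0.11 (SE 0.18, adjusted p = 0.91). Its main clusters were close to each other, at 264 (exact 95% Poisson interval 248 to 279), 294 (276 to 312) and 290 (253 to 331) CPM, intervals that cover counting error only. 2 clusters with macrophage markers were left out of the class for their leading genes, with Itgb1 at 259 (218 to 306) in one led by Mmp12 and Ccr2 and 419 (366 to 478) in one led by the melanoma gene Dct and cycling genes. Before hashtag assignment the first had 11 and 57 cells from WT lung without and with tumor, and 37 and 31 from LAIR1KO lung. The second had 12, 28, 13 and 16 in the same order.

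**Figure D2:**
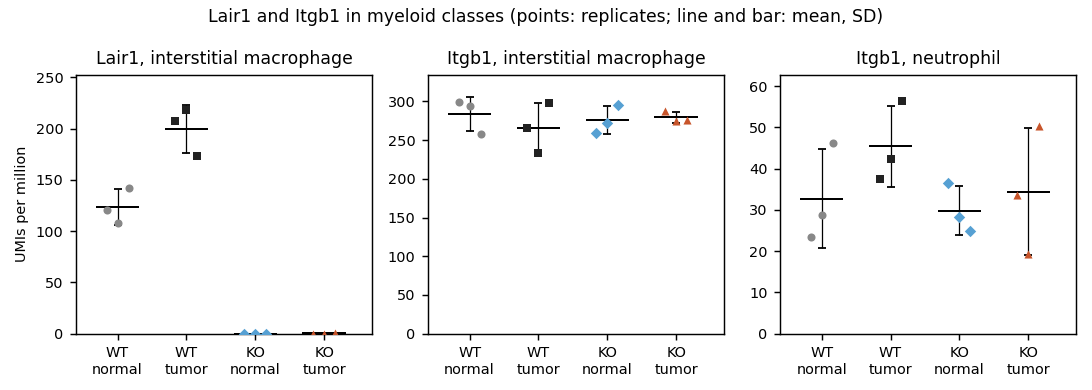
Lair1 and Itgb1 in interstitial macrophage-like cells and Itgb1 in neutrophil-like cells (CPM) by group. Points are hashtag replicates, line and bar the mean and SD: Lair1 is at or near 0 in both LAIR1KO groups, while Itgb1 in the macrophages lies between 233 and 299 in all 12 replicates.

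The other 6 genes were near 0 in interstitial macrophage-like cells. Itga1 had 33 UMIs in 1433 cells (3.53 ± 4.02 CPM, n = 12, from 0 to 10.3), Itga2 had 5 UMIs, Ddr1 had 3 and Itga11 had none. Ddr2 stood at 2.52 and Mrc2 at 2.31 CPM. The 11 endothelial markers had 2.01 to 3.52 UMIs per 10000 in these 12 sums, and their part in the Itga1 counts was not tested. Neutrophil-like cells had 11 Itga1 UMIs in 2189 cells and no Itga2 or Ddr1 UMI. In the neutrophil-like class Itgb1 means ranged from 29.8 in LAIR1KO normal to 45.4 in WT tumor-bearing lung, and the edgeR adjusted p exceeded 0.6 in every contrast.

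Itga1, the collagen IV-binding alpha subunit, was a gene of vascular classes. General capillary endothelial-like cells, a capillary class, stood at 1246 ± 202 CPM (n = 12, from 905 to 1563). They were 8.1% of assigned cells and held 38.7% of the 10102 Itga1 UMIs. The next classes were pericyte- or smooth muscle-like cells at 1137 ± 420 (1604, 790.5 and 1016), larger vessel endothelial-like cells at 784 ± 22.8 (n = 3) and aerocyte endothelial-like cells, the capillary cells specialised for gas exchange, at 661 ± 127 (n = 11). No neighbours among these 4 classes passed the threshold (edgeR adjusted p of 0.63 or more). The pericyte- or smooth muscle-like sums also held 36.4 to 82.7 endothelial marker UMIs per 10000, and the part of those in their Itga1 was not tested.

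The step down came at alveolar type 1 cell-like cells, at 368.0, 300.7 and 171.9 in LAIR1KO normal replicates and 27.8 in the 1 WT tumor-bearing replicate with enough cells. Aerocyte endothelial-like cells were above them by 1.87 on the log2 scale (SE 0.41, edgeR adjusted p = 9.845e-05, higher in 4 of 4 replicates), in a comparison that called 26.1% of genes. The LAIR1KO normal sums of this epithelial class held 24.5 to 36.6 endothelial marker UMIs per 10000. Natural killer and T cell-like cells showed Itga1 in few sums. One natural killer cell-like sum reached 220.5 with 11.03 endothelial marker UMIs per 10000, while the other 3 were at 15.3, 0 and 0 with 0.305 to 1.20. In T cell-like cells the 2 highest sums, 122.8 and 172.8 in LAIR1KO tumor-bearing lung, had 29.8 and 13.1 endothelial marker UMIs per 10000. How far endothelial RNA contributed to these sums was not tested. B cell-like and non-classical monocyte-like cells had no Itga1 UMI.

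Itga2, whose product is the CD49b antigen long used to recognise mouse natural killer cells, ranked first in natural killer cell-like cells. Their 4 sums stood at 171.5 and 358.8 CPM in WT tumor-bearing and 91.5 and 95.7 in LAIR1KO tumor-bearing lung, from only 29 UMIs in 72 cells. Both capillary classes were next, at 82.3 ± 25.4 (n = 11) in aerocyte and 80.4 ± 25.1 (n = 12, from 22.9 to 113) in general capillary endothelial-like cells. The difference of natural killer from aerocyte cells was 0.92 (SE 0.46, edgeR adjusted p = 0.136, higher in 2 of 3 replicates) and did not pass the threshold. With at least 20 cells per sum the natural killer class dropped out and aerocytes ranked first at 81.9. General capillary cells were above pericyte- or smooth muscle-like cells, at 33.6, by 1.44 (SE 0.48, adjusted p = 0.0442, 3 of 3), against 8.44% of genes called. No UMI of Itga2 was found in neutrophil-like, dendritic cell-like or non-classical monocyte-like sums.

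Across groups the capillary integrins showed no called change. In general capillary endothelial-like cells Itga1 was 1245, 1197 and 1373 in WT normal, 1563, 1382 and 1077 in WT tumor-bearing, 1272, 904.6 and 917.5 in LAIR1KO normal and 1442, 1210 and 1373 in LAIR1KO tumor-bearing replicates. The WT and tumor-bearing ranges overlap, and the LAIR1KO normal group holds the 2 lowest values. LAIR1KO against WT in normal lung gave -0.28 (SE 0.16, edgeR adjusted p = 0.713), and tumor against normal in LAIR1KO gave 0.32 (SE 0.16, adjusted p = 0.61). In aerocyte endothelial-like cells Itga1 was 558.5, 610.2 and 541.3 in WT normal against 701.3, 616.3 and 1009 in WT tumor-bearing lung. These 2 groups did not overlap, and the difference of 0.38 (SE 0.19) had an adjusted p of 0.70. Itga2 in the general capillary class overlapped between all groups, with group means of 60.2 to 92.9. Itgb1 there was 617.7, 581.6 and 597.4 in WT normal and 709.3, 652.1 and 672.3 in WT tumor-bearing replicates. These 2 groups did not overlap, and the difference of 0.11 (SE 0.16) had an edgeR adjusted p of 0.911.

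**Figure D3:**
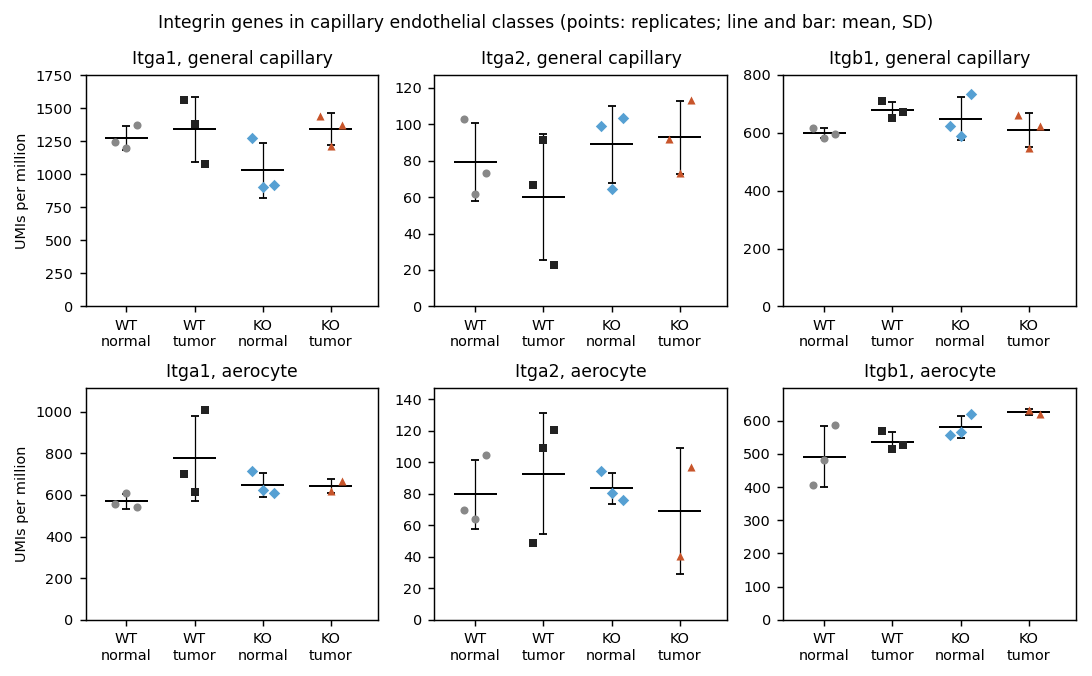
Itga1, Itga2 and Itgb1 (CPM) in general capillary and aerocyte endothelial-like cells of the 4 groups. Points are hashtag replicates, line and bar the mean and SD; the Itga1 groups overlap in the general capillary class, and the WT tumor-bearing aerocyte sums for Itga1 lie above the WT normal ones.

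Itga11, the fibroblast collagen receptor subunit, was barely captured, with 29 UMIs in all assigned cells. Of these, 8 were in adventitial, 8 in inflammatory and 5 in alveolar fibroblast-like cells, 4 in alveolar type 2 cell-like, 2 in alveolar type 1 cell-like and 1 in pericyte- or smooth muscle-like cells, with 1 in an unnamed cluster. The adventitial class had the highest mean, 13.04 ± 12.9 CPM (8.61, 30.6, 0 and 12.9). No class allowed a test of Itga11, and differences between groups were not detectable at this depth.

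Ddr1, the epithelial-type kinase receptor, was sparse, with 817 UMIs in all assigned cells. It ranked first in alveolar type 1 cell-like cells, the thin cells of the gas-exchange surface, at 70.6, 94.7 and 39.7 CPM in LAIR1KO normal and 138.9 in WT tumor-bearing lung. Inflammatory and alveolar fibroblast-like cells followed at 37.7 ± 19.4 (n = 11) and 33.3 ± 10.4 (n = 12). The first place was above the second by 0.77 (edgeR adjusted p = 0.061, 3 of 3 replicates higher), which did not pass the threshold. Alveolar type 2 cell-like cells, also epithelial, were lower in mean at 12.6 ± 4.69 (n = 12). A small mesothelial cell-like cluster, with too few cells per replicate for the order above, held 10.5% of Ddr1 UMIs in 0.3% of cells. Its level was 217 CPM (exact 95% Poisson interval 173 to 268, 86 UMIs in 26 cells), and its Ddr2 level was 161 (124 to 206). General capillary cells had 3 Ddr1 UMIs in 684 cells.

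Ddr2, the mesenchymal kinase receptor, was highest in fibroblast classes. Adventitial fibroblast-like cells, which surround vessels and airways, stood at 330 ± 71.6 (344.2, 375.2, 224.7 and 375.2), alveolar fibroblast-like cells at 249 ± 27.9 (n = 12, from 199 to 304) and inflammatory fibroblast-like cells at 245 ± 54.7 (n = 11). The 3 were not separated (edgeR adjusted p = 0.45 and 0.52). Inflammatory fibroblasts were above the pericyte- or smooth muscle-like class, at 135 ± 52.6, by 1.34 (SE 0.36, adjusted p = 0.00252, 2 of 2 replicates), against 26.4% of genes called. Alveolar fibroblast-like cells held 34.9% and inflammatory ones 31.7% of the 3927 Ddr2 UMIs.

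Mrc2, the endocytic receptor, was also highest in fibroblast classes, with an epithelial class close behind. It stood at 323 ± 61.9 (n = 12, from 232 to 461) in alveolar, 231 ± 94.0 (n = 4) in adventitial and 203 ± 45.5 (n = 11) in inflammatory fibroblast-like cells. Alveolar against adventitial cells differed by 0.60 (edgeR adjusted p = 0.24, 4 of 4 replicates higher). Alveolar type 1 cell-like cells came next at 200.4 ± 41.6 (n = 4, lowest 152). Their sums held 23.6 to 46.5 fibroblast marker UMIs per 10000, whose part in the Mrc2, Ddr1 and Ddr2 levels of this class was not tested. The fit placed inflammatory fibroblasts above them by 0.75 (SE 0.29, adjusted p = 0.0302, against 39.4% of genes called), although the fibroblasts were higher in 0 of the 3 replicates that held both classes. Type 1 cells were above pericyte- or smooth muscle-like cells, at 64.1 ± 78.0, by 1.37 (SE 0.48, adjusted p = 0.0462, 3 of 3), against 10.4%.

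Aerocyte endothelial-like cells had more Mrc2 than general capillary cells, at 41.9 ± 40.5 against 21.3 CPM (log2 difference 1.003, SE 0.33, edgeR adjusted p = 0.0261, 9 of 11 replicates, against 13.8% of genes called). The 3 LAIR1KO normal aerocyte sums were 51.6, 102.8 and 120.4, of which 1 lay below the highest WT normal sum, 74.9. Their fibroblast markers stood at 15.3 to 38.1 UMIs per 10000 against 2.28 to 16.9 in the other aerocyte sums. The part of those markers in the Mrc2 level was not tested. Clusters of alveolar fibroblast-like cells ordered the 2 fibroblast receptors in opposite ways. The cluster with the lowest Ddr2 level, 196 (exact 95% Poisson interval 174 to 220), had the highest Mrc2 level, 469 (434 to 505), and the cluster with the highest Ddr2, 291 (272 to 311), had the lowest Mrc2, 271 (252 to 291). These intervals cover counting error only, and cells of a replicate are not independent samples.

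In alveolar fibroblast-like cells neither receptor had a called change between groups. Ddr2 was 254.2, 260.6 and 273.5 in WT normal against 241.0, 199.3 and 237.0 in LAIR1KO normal replicates. These groups did not overlap, and the difference of -0.27 (SE 0.16) had an edgeR adjusted p of 0.71. Mrc2 was 260.3, 307.3 and 231.7 in LAIR1KO normal and 312.7, 265.4 and 461.2 in LAIR1KO tumor-bearing lung, which overlap (0.45, SE 0.18, adjusted p = 0.49). In inflammatory fibroblast-like cells Ddr2 was 329.0, 328.6 and 224.1 in WT normal against 237.5 and 149.3 in LAIR1KO normal lung (-0.58, adjusted p = 0.35).

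**Figure D4:**
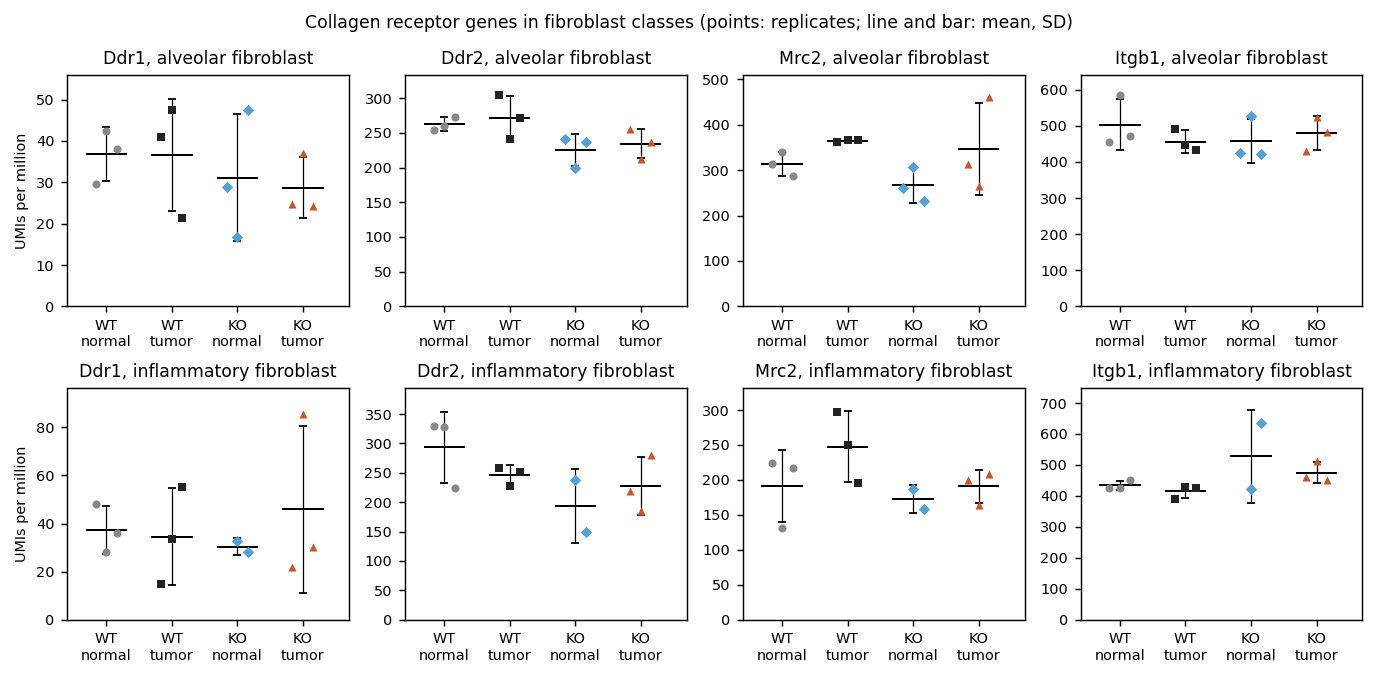
Ddr1, Ddr2, Mrc2 and Itgb1 (CPM) in alveolar and inflammatory fibroblast-like cells of the 4 groups. Points are hashtag replicates, line and bar the mean and SD; Ddr2 in LAIR1KO normal alveolar fibroblasts, 199 to 241, lies below the WT normal values of 254 to 274, a difference that did not pass the adjusted threshold.

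The contrasts between groups were made within each class, for the pairs of a gene and a class with enough counts. LAIR1KO against WT in normal lung called 4 of 25 pairs, all higher in LAIR1KO, where 2.59% of all 39114 gene and class pairs were called. Tumor-bearing against normal lung in LAIR1KO called 3 of 25, all lower with tumor, against 1.66%. LAIR1KO against WT in tumor-bearing lung called 0 of 30 by edgeR, with 0 at an unadjusted p under 0.05 and 0 by DESeq2, against 0.0426%. Tumor-bearing against normal lung in WT called 0 of 26, with 2 under an unadjusted 0.05 and 0 by DESeq2, against 0.388%. The interaction of genotype and tumor called 0 of 25, with 5 under an unadjusted 0.05 and 0 by DESeq2, against 0.726%. Over all gene and class pairs, 3046 of 49348, 3508 of 40192 and 4073 of 39114 were under an unadjusted 0.05, in the same order. The median log2 difference over the pairs of the 7 genes was 0.11 for genotype in normal lung and -0.08 for tumor in LAIR1KO. The 2 contrasts with calls share the LAIR1KO normal replicates, and all 7 calls were in alveolar type 2 cell-like and inflammatory fibroblast-like cells. In the alveolar type 2 class 9.1% and 6.33% of 7993 genes were called in these contrasts, and in the inflammatory fibroblast class 1.72% and 1.15% of 6094.

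Itga1 in alveolar type 2 cell-like cells, the surfactant-producing epithelium, was 150.2, 161.1 and 87.8 CPM in LAIR1KO normal replicates against 53.6, 59.7 and 31.8 in WT normal ones. Every LAIR1KO value lay above every WT value, and the difference was 1.33 on the log2 scale (SE 0.25, edgeR adjusted p = 0.002545). In LAIR1KO tumor-bearing lung it was 14.5, 14.4 and 18.8, lower than in LAIR1KO normal lung by 2.83 (log2 difference -2.83, SE 0.37, adjusted p = 2.682e-04). The WT groups had 29.3, 31.4 and 19.3 with tumor, a difference of -0.93 from normal (SE 0.31, adjusted p = 0.48). The interaction, -1.91 (SE 0.51), had an adjusted p of 0.059, in a class where 2.33% of genes had a called interaction, so the tumor difference was not shown to depend on genotype.

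In inflammatory fibroblast-like cells Itga1 was 113.7 and 205.3 in the 2 LAIR1KO normal sums against 5.82, 28.2 and 18.8 in WT normal lung (3.24, SE 0.52, edgeR adjusted p = 0.002881). With tumor in LAIR1KO it was 57.3, 19.8 and 9.60 (-2.47, SE 0.51, adjusted p = 0.02248). The second call was lost without LAIR1KO tumor-bearing replicate 2 (-2.40) or replicate 3 (-1.73).

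Mrc2 in alveolar type 2 cell-like cells was 30.04, 107.4 and 83.1 in LAIR1KO normal against 22.6, 33.5 and 29.7 in WT normal lung, groups that overlap (1.36, SE 0.30, edgeR adjusted p = 0.007049). This call was lost without LAIR1KO normal replicate 2 (1.04). Ddr2 in the same class was 11.3, 45.5 and 28.2 against 7.06, 10.5 and 2.12 (2.10, SE 0.59, adjusted p = 0.03304). It was lost without WT normal replicate 1 (2.12) or 3 (1.62), or LAIR1KO normal replicate 2 (1.64) or 3 (2.13). Itgb1 fell with tumor in LAIR1KO type 2 cells, from 371.7, 355.3 and 325.9 to 209.6, 144.0 and 216.7 (-0.74, SE 0.17, adjusted p = 0.01354). That call was lost without LAIR1KO normal replicate 2 (-0.72) or LAIR1KO tumor-bearing replicate 2 (-0.61) or 3 (-0.84). Itgb1 against WT in normal lung was 0.51 with an adjusted p of 0.0508.

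Markers of other cell types moved with these calls. The 11 endothelial markers were at 11.2 to 19.5 UMIs per 10000 in LAIR1KO normal type 2 sums, against 3.68 to 5.72 in WT normal, 1.12 to 3.37 in WT tumor-bearing and 0.976 to 3.17 in LAIR1KO tumor-bearing sums. General capillary cells themselves had 94.4 to 144. In inflammatory fibroblast-like sums they were at 12.5 to 20.7 in LAIR1KO normal and at no more than 3.58 elsewhere. The 11 fibroblast markers in type 2 sums were at 12.9 to 29.3 in LAIR1KO normal, 6.72 to 12.0 in WT normal, 9.83 to 16.4 in WT tumor-bearing and 5.90 to 23.9 in LAIR1KO tumor-bearing lung. All 11 endothelial markers were detected in the type 2 cells of each group. Lum, a fibroblast marker, was at 0 in the type 2 cells of all groups but LAIR1KO normal. The part of these markers' cell types in the calls was not tested.

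The cell clusters behind the classes also differed. A smaller type 2 cluster made up 53.4% of LAIR1KO normal type 2 cells against 9.7% to 11.4% in the other groups, and a sub-cluster of inflammatory fibroblasts made up 25.9% of that class in LAIR1KO normal lung against 0% to 2.7% elsewhere. Cells of the smaller type 2 cluster had a median of 16099 UMIs, and 45.1% were hashtag doublets before those were removed, against 9405 and 5.4% in the main type 2 cluster. In the main cluster Itga1 was 12.01 and 12.7 CPM in WT lung without and with tumor, and 19.9 and 6.42 in LAIR1KO lung without and with tumor. In the smaller cluster it was 274 and 120.1 in WT, and 195 and 75.3 in LAIR1KO lung. In the fibroblast sub-cluster Itga1 was 431.7 CPM in LAIR1KO normal lung (96 UMIs in 15 cells), with 45.4 endothelial marker UMIs per 10000. It was 266.9 in WT normal (3 cells) and 530.8 in LAIR1KO tumor-bearing lung (4 cells). The main inflammatory fibroblast cluster had 18.6 in LAIR1KO normal lung (8 UMIs in 43 cells), with 0.6985 endothelial marker UMIs per 10000.

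Without these 2 clusters, a setting chosen after seeing the data, 0 pairs were called by edgeR in each of the 5 contrasts, with 0 to 2 of 22 to 27 pairs at an unadjusted p under 0.05. Of all gene and class pairs in that setting, 0.0663% to 0.626% were called, depending on the contrast. LAIR1KO normal replicate 1 then had fewer than 10 type 2 cells and was left out of that class. The type 2 class then had 0.693% of 7653 genes called for genotype in normal lung. Type 2 Itga1 became 20.5 ± 2.0 (n = 2) in LAIR1KO normal against 11.5 ± 7.7 (n = 3) in WT normal lung, with a difference of 0.69 (edgeR adjusted p = 0.89). Mrc2 differed by 0.57 (adjusted p = 0.80). For tumor in LAIR1KO, Itga1 differed by -1.59 (adjusted p = 0.75) and Itgb1 by -0.19 (adjusted p = 0.92). Type 2 Ddr2 and inflammatory fibroblast Itga1 no longer had enough counts for the test. Type 2 Ddr2 was then 7.65 and 21.95 in LAIR1KO normal sums against 1.14 to 5.21 in WT normal ones, and fibroblast Itga1 17.1 and 24.2 against 5.82 to 9.98. Neither pair of ranges overlapped, on 5 to 11 UMIs per group.

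**Figure D5:**
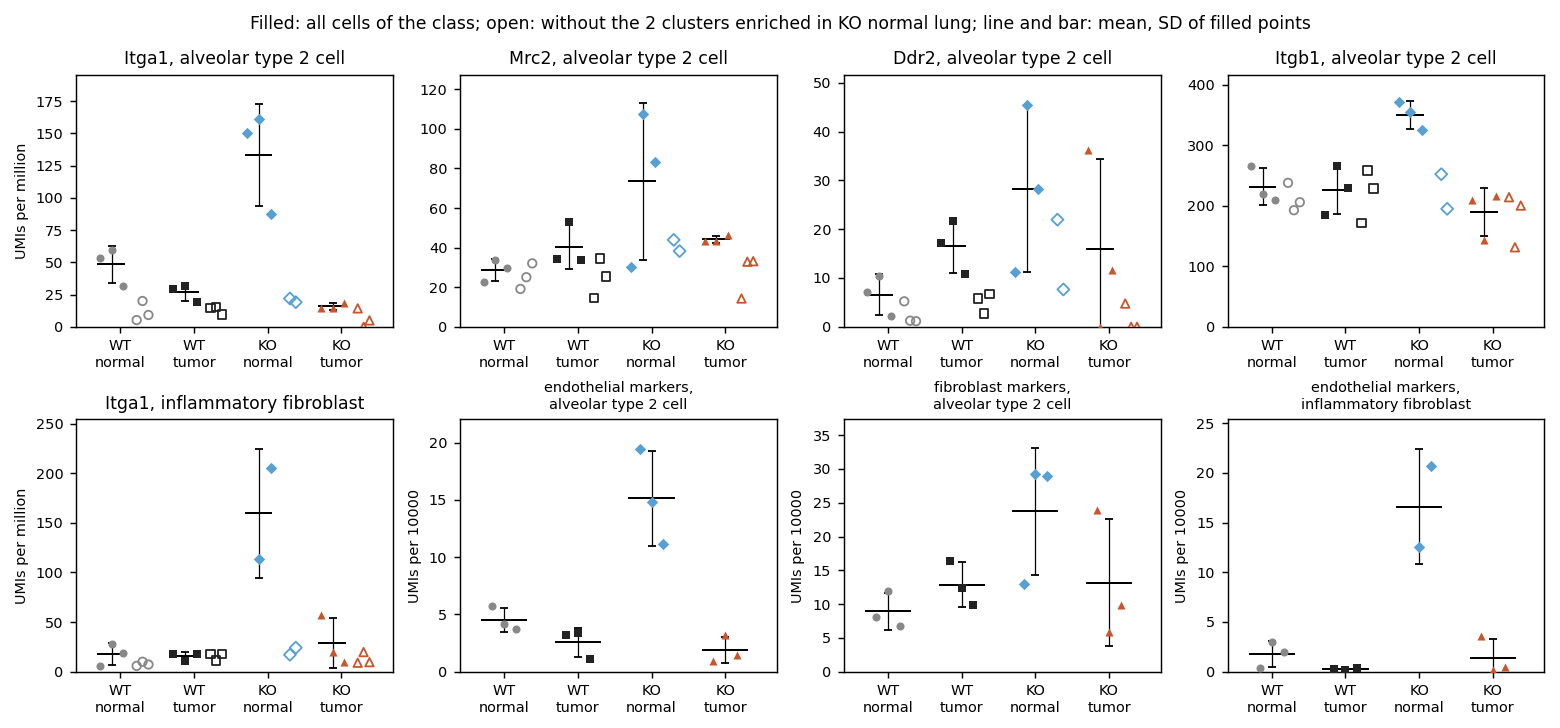
The 5 pairs of gene and class with a call (CPM) and the summed endothelial and fibroblast markers in the same sums (UMIs per 10000), by group. Filled points are hashtag replicates with all cells of the class, open points are without the 2 clusters enriched in LAIR1KO normal lung, line and bar are the mean and SD of filled points; the LAIR1KO normal points stand highest for Itga1 and for the endothelial markers.

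The rest of the collagen-receptor pathway was counted in the same fits. For genotype in normal lung the share called was 2.59% of all 39114 gene and class pairs, and 9.1% of 7993 genes in the type 2 class. For genotype in normal lung the other alpha partners of beta 1 had 2 higher and 1 lower of 32 pairs: Itga8 in alveolar type 2 cell-like cells (3.08, edgeR adjusted p = 0.00105) and Itga6 in inflammatory fibroblast-like cells (3.96, adjusted p = 0.01942) were higher, and Itga9 in type 2 cells was lower (-0.83, adjusted p = 0.004812). Itga8 pairs with beta 1 on smooth muscle and fibroblasts, Itga6 encodes a laminin receptor subunit, and Itga9 a subunit that binds tenascin. The other beta subunits had 1 higher of 11 (Itgb5 in type 2 cells, 1.95). Integrin activation and adhesion genes had 4 higher of 107, all in type 2 cells: Fermt2 (1.01), Lims1 (0.79), Tns1 (1.11) and Zyx (1.23), which encode proteins at the inner face of adhesion sites. Collagen genes, the ligands, had 5 higher of 46, also all in type 2 cells, among them Col1a1 (2.37) and Col6a3 (3.39). Kinase and uptake partners had 0 of 47 by edgeR, with 10 under an unadjusted 0.05, where 4708 of all 39114 pairs were. The medians of the pairs were 0.01 for alpha partners, -0.21 for beta subunits, -0.04 for adhesion genes, 0.56 for collagens and -0.13 for kinase and uptake partners. Without the 2 clusters only the Itga8 call was left among these lists. The marker values of LAIR1KO normal type 2 cells given before apply to the calls made with all clusters. In the main type 2 cluster alone, endothelial and fibroblast markers were at 2.09 and 8.14 UMIs per 10000 in LAIR1KO normal lung. WT normal lung had 0.467 and 6.73 there. The part of these markers' cell types in the remaining Itga8 call was not tested. Lair1 was the only called gene of the other collagen receptors (1 of 4 pairs, lower).

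In tumor-bearing lung only Lair1 was called for genotype in these lists, in interstitial macrophage-like (-8.65, SE 0.35, edgeR adjusted p = 5.008e-11) and alveolar macrophage-like cells (-6.87, adjusted p = 0.006135). These classes had 0.0995% and 0.0248% of their genes called. Without the 2 clusters Mrc1 in type 2 cells was also called, lower in LAIR1KO (-3.44), where 0.144% of 7653 type 2 genes were called. For tumor in LAIR1KO, 2 of 32 alpha partner pairs were lower, both for Itga8, in type 2 cells (-2.94) and in general capillary endothelial-like cells (-2.36, adjusted p = 0.0169). Adhesion genes had 6 lower of 107, of which Tns1 in general capillary cells (-1.07, edgeR adjusted p = 0.008463) was outside the type 2 class. In this contrast the share called was 1.66% of all 39114 pairs, and 6.33% of 7993 genes in the type 2 class. Without the 2 clusters both Itga8 calls were left, and Tns1 in capillary cells was the 1 adhesion call left of 105. In that capillary class 1.06% of 4259 genes were called, and its fibroblast markers were at 9.51 to 19.6 UMIs per 10000 in LAIR1KO normal sums against 1.77 to 7.25 elsewhere. For tumor in WT none of the lists had a call by edgeR, with 2 of 5 pairs of other collagen receptors, 4 of 33 alpha partners, 3 of 11 beta subunits, 9 of 108 adhesion genes, 12 of 50 kinase and uptake partners and 9 of 46 collagens at an unadjusted p under 0.05. Over all 40192 gene and class pairs of that contrast 0.388% were called, and 3508 were under the unadjusted 0.05. Without the 2 clusters Mrc1 in type 2 cells was called higher with tumor in WT (4.05), where 0.588% of 7653 type 2 genes were called. With all clusters, the 10 interstitial macrophage markers were at 4.89 UMIs per 10000 in WT normal and 10.4 in WT tumor-bearing type 2 cells. LAIR1KO type 2 cells had 12.8 without and 5.11 with tumor. The part of macrophage RNA in the Mrc1 calls was not tested.

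Interstitial macrophage-like cells, in which Itgb1 had no called change, had an interaction of genotype and tumor for 2 related integrin genes. It was -1.59 for Itga6 (SE 0.32, edgeR adjusted p = 0.02191) and -1.14 for Itgb5 (SE 0.26, adjusted p = 0.03581), which encodes a beta subunit that pairs with alpha v. In this class 0.953% of 7032 genes had a called interaction. Itga6 was 55.9, 58.9 and 38.6 CPM in WT normal and 75.9, 58.3 and 89.2 in WT tumor-bearing replicates, against 97.3, 104.9 and 92.4 in LAIR1KO normal and 37, 64.9 and 47.5 in LAIR1KO tumor-bearing ones. The LAIR1KO normal values were the highest, and those of the 2 tumor-bearing groups overlapped. Itgb5 was 78.7, 71.7 and 120 in WT normal and 148.8, 135.2 and 137 in WT tumor-bearing replicates, against 162.2, 139.1 and 164 in LAIR1KO normal and 97.4, 129.9 and 105.2 in LAIR1KO tumor-bearing ones. The WT values were thus higher with tumor and the LAIR1KO values lower. The Itga6 call was lost without WT tumor-bearing replicate 3 (-1.40) or LAIR1KO normal replicate 2 (-1.545). The Itgb5 call was lost without any 1 of 8 replicates, with values from -1.01 (without WT normal replicate 1) to -1.25 (without LAIR1KO normal replicate 2). DESeq2 called both. 1 of the main clusters of the class held 50.6% of its WT cells without tumor and 30.2% with tumor, against 25.7% and 41.4% of its LAIR1KO cells. In LAIR1KO normal lung 52.7% of the cells of the class had no hashtag and were left out, against 22.6% to 26.8% in the other libraries. The part of either in the interaction was not tested. The interaction also uses WT normal lung, whose replicates expressed Ddx3y, so sex and group cannot be told apart in it.

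Finally, the pattern of each gene over the 17 classes was set against 11286 genes, by Pearson r of log2 class means with 10 CPM added. These points share libraries and depth, so the values are descriptions. The closest to Itga1 were Bvht (r = 0.983), Tspan7 (0.981) and Plcb4 (0.98), and to Itgb1 were Tmem109 (0.935), Capn2 (0.904) and Tbl1x (0.897). Itga2 was closest to 4833403J16Rik (0.925), Ubtf (0.9) and Sppl3 (0.887), and Itga11 to Shisa3 (0.988), Cntn4 (0.976) and Vit (0.976). The Itga11 pattern rested mostly on the adventitial sums, with 6 UMIs and a mean of 13.04 CPM against the 10 CPM added. Ddr2 was closest to Arhgef25 (0.973) and Kirrel (0.97), Mrc2 to Efemp1 (0.973), Twsg1 (0.972) and Dpep1 (0.969), and Ddr1 to Papss2 (0.908), Fzd2 (0.854) and Tcea3 (0.836). Among the 7 genes themselves the highest r was 0.88 for Ddr2 with Mrc2, followed by 0.73 for Itga1 with Itga2.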

How the data were processed

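The deposited matrices hold raw UMI counts per gene and barcode, and of antibody hashtags, from 10x 3' v3 libraries. Per the submitters' processing notes they were made with Cell Ranger 4.0.0, STAR, R 4.0.0, Seurat 3.2.0 and the mm10 build, with no role given for each. Hashtag rows were kept out of gene totals. Barcodes with at least 300 genes and at most 10% mitochondrial UMIs were kept, hashtags were assigned with HTODemux (Seurat 5.3.0, quantile 0.99), and hashtag doublets and cells with no hashtag were left out of the sums. Cells were clustered with scanpy 1.11.5 (2000 variable genes without the 7 genes, 30 components, 15 neighbours, Leiden resolution 1.0) and checked with Scrublet. Clusters were named only with at least 3 raised markers. A cluster with markers of several classes, mostly doublets, or more leading genes of another class stayed unnamed, and the last condition was added after seeing the data. 686 assigned cells were in unnamed clusters, 357 of them in LAIR1KO normal lung. The largest, with alveolar fibroblast and capillary markers together, held 189 assigned cells, with Itga1 at 632 CPM.

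Sums of counts per class and hashtag replicate, of at least 10 cells each, entered edgeR 4.0.16 (R 4.3.3, TMM, filterByExpr, quasi-likelihood), the 4 groups sharing the spread, with Benjamini-Hochberg adjustment over all genes of a class at 0.05. Standard errors are the log2 difference divided by the square root of F. The fit over classes used 131 sums, and of 112 neighbouring pairs in the level order 96 were tested and 10 called. The script was tested on simulated data. The labels do not say that hashtag replicates are separate mice, so p-values measure the spread between them. Replicate sums held 2378671 to 6202834 UMIs.

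The 7 genes, lists and markers were chosen with earlier results of these data known. Named genes are the 7, all called pairs, up to 3 pairs a contrast with ranges that do not overlap where fewer than 3 were called, and the 3 genes most alike in pattern, of which 1 is not reported here. Alternatives were DESeq2 1.42.0, no filter on low counts, fits with only 2 groups, at least 20 cells, Scrublet removal, a hashtag ratio of 2, resolution 0.5 and leaving out each replicate. Leaving out the 2 clusters enriched in LAIR1KO normal lung was added after seeing the data.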

Additional observations from a re-analysis of the deposited data

Results flagged for a closer look

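Genes of the pathway lists with an interaction of genotype and tumor past the threshold (edgeR, adjusted p under 0.05) were 9 in 2 classes. An interaction was called for 0.726% of all 39114 gene and class pairs. The share was 2.33% of 7993 genes in the type 2 class and 0.953% of 7032 in the macrophage class. The interaction uses WT normal lung, so sex and group cannot be told apart in it. In interstitial macrophage-like cells they were Itga6 (-1.59) and Itgb5 (-1.14). In alveolar type 2 cell-like cells they were Itga8 (-3.91), Itga9 (0.97), Col5a2 (-3.48), Lims1 (-1.40), Tns1 (-1.24), Zyx (-1.29) and Mrc1 (-7.21). Without the 2 clusters enriched in LAIR1KO normal lung, the type 2 values were -4.85 for Itga8 (adjusted p = 0.08033), 0.43 for Itga9 (0.7646), -1.09 for Lims1 (0.5442), -0.86 for Tns1 (0.2298), -1.13 for Zyx (0.4744) and -4.65 for Mrc1 (0.5036), and Col5a2 had too few counts, so no type 2 call was left. The macrophage values did not change, since the class holds neither cluster. The interstitial macrophage marker values of type 2 cells given before apply to Mrc1 here too.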

How the results depend on the processing

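Of the 7 genes' pairs with a class, those called changed with these settings (cause not tested). For genotype in normal lung, 4 were called, 0 without the 2 clusters enriched in LAIR1KO normal lung, and 1 to 5 when 1 replicate was left out (1 without LAIR1KO normal replicate 2, 2 without replicate 3). For genotype in tumor-bearing lung, 0 became 1 with no filter on low counts. For tumor in WT, 0 became 1 with no filter and 1 with a hashtag ratio of 2. For tumor in LAIR1KO, 3 became 5 with no filter, 5 with the hashtag ratio, 1 with at least 20 cells and 0 without the 2 clusters. Leaving out 1 replicate gave 1 to 6 there (1 without LAIR1KO normal replicate 2 or LAIR1KO tumor-bearing replicates 2 or 3, and 6 without LAIR1KO normal replicate 1). For the interaction, 0 became 2 with no filter and 1 without Scrublet doublets, and leaving out 1 replicate gave 0 to 1. In alveolar type 2 cell-like cells 3 uncalled differences turned sign: Itga1 for genotype in tumor-bearing lung from -0.57 to 0.48 (hashtag ratio), Itga1 for tumor in WT from -0.93 to 0.026 (without the 2 clusters) and Ddr2 for tumor in WT from 1.26 to -0.652 (hashtag ratio). Itga1 in type 2 cells, in both contrasts, kept its call whenever 1 replicate was left out. Itga1 in inflammatory fibroblasts for genotype in normal lung kept it in the 10 such settings that allowed a test; without LAIR1KO normal replicate 2 or 3 it could not be tested.

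Over all genes and classes, calls for genotype in normal lung went from 1013 to 2072 (no filter) and 238 (without the 2 clusters). For genotype in tumor-bearing lung they went from 21 to 66 (DESeq2), 651 (no filter), 39 (2 groups only), 61 (hashtag ratio) and 32 (without the clusters). Tumor in WT went from 156 to 757 (no filter) and 385 (hashtag ratio). Tumor in LAIR1KO went from 649 to 1594 (no filter), 1044 (Scrublet), 1556 (hashtag ratio) and 121 (without the clusters), and the interaction from 284 to 1121, 509 (Scrublet) and 126 (without the clusters). The highest class of each gene was the same in all level settings, except with at least 20 cells for Ddr2, Itga11, Itga2 and Itgb1 and at resolution 0.5 for Itgb1. No paired analysis was possible because hashtag numbers mark different replicates in each library. Itga11 had 29 UMIs in all, which limits what could be tested for it.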

Other observations

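Cells of the unnamed clusters held 20.3% of Itga1, 15.8% of Itga2, 18.1% of Mrc2 and 13.8% of Itgb1 UMIs. The 3 largest with both alveolar fibroblast and capillary markers came mostly from LAIR1KO normal lung (210, 110 and 46 of their 252, 133 and 55 cells before hashtag assignment). Their Itga1 was 632, 486 and 604 CPM and their Mrc2 293, 258 and 158, between the values of capillary and fibroblast classes for Itga1. A cluster led by the lymphatic genes Ccl21a, Prox1 and Reln, with a median of 839 UMIs per cell, had Itga1 at 567 CPM (exact 95% Poisson interval 454 to 699) and Itgb1 at 671 (548 to 814). Its Itga2 rested on 2 UMIs in 107 cells, and it had no Ddr1 UMI.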
